A study of Homo sapiens with 23 samples.

Results

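Retinoic acid acts through receptors of the RAR family, which bind DNA as partners of RXR receptors, recruit corepressors when no ligand is bound and exchange them for coactivators when it is. Cells control how much ligand reaches these receptors through carrier proteins such as CRABP2 and through enzymes that make, store or break down retinoids, several of which are themselves switched on by retinoic acid. In neuroblastoma cells the ligand is a standard inducer of neuronal differentiation. The peaks described here are those that overlap the hg19 windows drawn around 10 genes of this pathway: the receptor genes RARA, RARB and RXRA, the carrier gene CRABP2, the enzyme genes DHRS3, CYP26A1 and CYP26B1, and the response or cofactor genes RET, MEIS1 and NRIP1. There were 113 such peaks among the 52708 peaks of 5 lists.

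The chromatin came from SH-SY5Y, an established human neuroblastoma line. Per the labels' protocols the cells of the 5 lists were exposed to 10 µM retinoic acid for 4 days. Brain-derived neurotrophic factor (BDNF) at 50 ng/mL in medium without serum followed for 3 days. Day 0 and day 3 are read here as days of BDNF, which cells of day 0 had not yet received. By these protocols no list used here came from cells without retinoic acid. The series has 23 samples, 14 of them ChIP and 9 input, and 5 ChIP samples gave the lists used. The first was ChIP of SVIL (supervillin, which binds actin and is listed in the design as working with LSD1+8a) in cells with a control shRNA at day 3. ChIP of LSD1+8a, the neuronal splice isoform of the histone demethylase LSD1 (KDM1A), was done in cells with a control shRNA at day 3. LSD1 itself was profiled in cells with a control shRNA at day 3, in cells with an shRNA against LSD1+8a at day 0, and in cells with a control shRNA at day 0. Each of these groups is 1 library, so there is no replicate check and no test between conditions. The lists carry no value that would show how far the isoform was depleted, and whether the LSD1 antibody also recognises LSD1+8a was not examined. With 1 library per day for LSD1 in control cells, differences between libraries and between days cannot be told apart.

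Among the 10 genes, RARB and CYP26A1 are textbook direct targets of the receptors, whose binding element is a direct repeat of a short unit. Promoters of RefSeq on GRCh38.p14, from 250 bases before to 50 bases after each start, were searched on both strands for direct repeats of the unit AGGTCA, of its variant GGGTCA, of the variant AGTTCA or of the variant GGTTCA, in any combination, with a spacer of 1, 2 or 5 bases. Of 35116 promoters, 91 held such a repeat, which is 0.259%. With a spacer of 5 bases the number was 31, or 0.0883%. All 10 genes were in the table, with 22 promoters in all, and 2 of these held a repeat: 1 of 4 promoters of RARB and 1 of 2 promoters of CYP26A1, both with a spacer of 5 bases. They are shown with the repeat in capitals, because RARB had the most LSD1 peaks of day 3 and CYP26A1 had peaks of 1 list only. The RARB promoter is chr3:25428013-25428312 on the plus strand, with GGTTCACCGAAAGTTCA at positions -53 to -37 from the start. The CYP26A1 promoter is chr10:93073643-93073942 on the plus strand, and its repeat lies on the minus strand, where it reads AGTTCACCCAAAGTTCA, at positions -90 to -74. Both sets of coordinates are of GRCh38.p14 and were not set against the hg19 peaks, so whether a peak covers either promoter was not determined. The match describes these letters only.
RARB: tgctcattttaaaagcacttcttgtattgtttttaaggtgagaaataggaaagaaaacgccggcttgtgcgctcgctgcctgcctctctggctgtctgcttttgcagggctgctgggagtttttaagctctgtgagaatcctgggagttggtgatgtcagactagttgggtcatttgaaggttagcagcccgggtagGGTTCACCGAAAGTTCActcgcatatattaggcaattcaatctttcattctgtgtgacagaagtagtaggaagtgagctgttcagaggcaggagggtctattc
CYP26A1: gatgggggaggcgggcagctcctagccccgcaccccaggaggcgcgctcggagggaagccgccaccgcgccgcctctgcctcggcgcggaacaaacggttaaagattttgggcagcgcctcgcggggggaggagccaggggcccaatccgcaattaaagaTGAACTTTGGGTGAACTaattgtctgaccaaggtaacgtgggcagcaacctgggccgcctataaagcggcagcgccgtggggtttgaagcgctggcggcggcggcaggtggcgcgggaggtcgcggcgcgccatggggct

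SVIL had 8 peaks in the 10 windows (95% Poisson interval 3.45 to 15.8), LSD1+8a had 4 (1.09 to 10.2), LSD1 at day 3 had 32 (21.9 to 45.2), LSD1 after LSD1+8a knockdown had 25 at day 0 (16.2 to 36.9) and LSD1 in control cells at day 0 had 44 (32.0 to 59.1). As a share of each list, these peaks made up 0.551% of 1452 SVIL peaks, 0.118% of 3378 LSD1+8a peaks, 0.154% of 20748 LSD1 peaks at day 3, 0.244% of 10248 LSD1 peaks in knockdown cells and 0.261% of 16882 LSD1 peaks in control cells at day 0. The intervals of the day 3 and day 0 counts of LSD1 in control cells overlap. CRABP2 accounted for most of the gap, and without its window LSD1 had 28 peaks at day 3 and 32 in control cells at day 0. Peaks per Mb in the windows, set against the span of each list, were 4.10 against 0.477 for SVIL, 2.05 (0.559 to 5.25) against 1.11 for LSD1+8a, 16.4 against 6.82 for LSD1 at day 3, 12.8 against 3.37 in knockdown cells and 22.6 against 5.55 in control cells at day 0. For LSD1+8a the interval includes the value of the span, and without the CRABP2 window 1 peak was left, or 0.541 per Mb, which is below it. The other lists kept a higher density in the remaining windows, at 2.70 per Mb for SVIL, 15.1 for LSD1 at day 3, 10.8 in knockdown cells and 17.3 in control cells at day 0. The span includes stretches without genes or without aligned reads, whereas every window was drawn around a gene, so these densities are a description. Intervals cover counting error only, and no source used here gives the depth of a library.

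**Figure D1:**
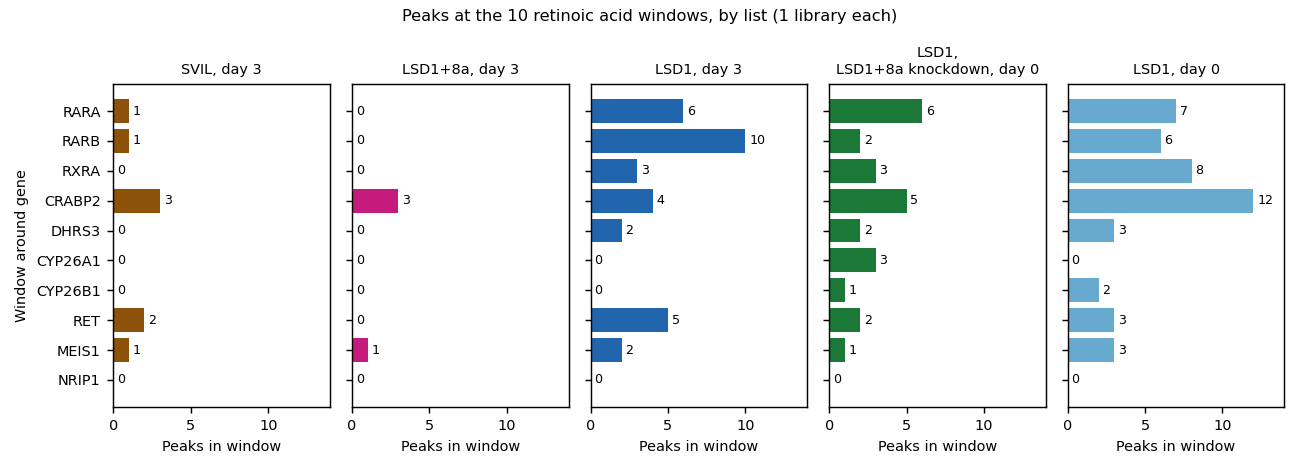
Number of peaks (horizontal axis) in the window around each gene (rows), with 1 panel per list and 1 library per list. NRIP1 had 0 peaks in all 5 lists, CYP26A1 had 3 peaks in the knockdown list and 0 elsewhere, and RARB had 10 peaks in the day 3 LSD1 list.

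The windows differed widely. CRABP2, with the shortest window at 100 kb, held 27 of the 113 peaks, RARA 20, RARB 19, RXRA 14, RET 12, MEIS1 8, DHRS3 7, CYP26A1 and CYP26B1 3 each, and NRIP1 0. Peaks that overlapped by at least 1 bp were joined across lists into 66 regions, of which 38 (57.6%) came from 1 list, 16 from 2, 8 from 3, 2 from 4 and 2 from all 5. Over all lists and chromosomes, 57.6% of 32188 such regions also came from 1 list. Regions in 3 or more lists were 12 of 66, or 18.2% (exact binomial 95% interval 9.76 to 29.6), against 15.7% of all regions, so the share at these genes lay near that of the whole lists. The 12 were spread over RARA and CRABP2 with 3 each, RET with 2, and RARB, RXRA, DHRS3 and MEIS1 with 1 each. No annotation of hg19 was used, so a peak in a window was not assigned to the named gene rather than to a neighbour, nor placed in an exon, an intron or a promoter. A peak or region named below by a gene is one in the window of that gene, and it may lie at a neighbouring gene. All coordinates of peaks are of hg19. Tags are the authors' counts of reads in a peak, not normalized for depth, and scores and fold enrichments are values the authors deposited, used here to describe and rank peaks within a list.

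RARA, a receptor found in most cell types, was one of the windows with LSD1 peaks in all 3 LSD1 lists, with 6 at day 3, 6 in knockdown cells at day 0 and 7 in control cells at day 0. SVIL had 1 peak there and LSD1+8a had 0. Its neighbours in the RefSeq order are the replication factor gene CDC6 and the connexin gene GJD3. Peaks of this window were not assigned to RARA rather than to these neighbours. The single SVIL peak, at chr17:38459575-38459902, had 17 tags and a score of 84.12. It lay inside the region chr17:38459185-38460615, found in 4 of the 5 lists. The LSD1 peaks of that region had 74 tags at day 3, 23 tags in knockdown cells and 41 tags in control cells at day 0. Every list but LSD1+8a called the site, and the summits of the 4 peaks were spread over 572 bp. Within their lists these peaks ranked differently: 36.4% of SVIL peaks scored lower, 10.2% of LSD1 peaks at day 3, 33.3% in knockdown cells and 72.7% in control cells at day 0.

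A further pair of regions in the RARA window was shared by the 3 LSD1 lists. The region chr17:38462488-38464342 had 80 tags at day 3, where it was the highest scoring RARA peak of that list at 140.94, 23 tags in knockdown cells and 35 tags in control cells at day 0. The region chr17:38487910-38489256 had 53, 49 and 39 tags in the same order of lists. Summits agreed within 133 bp and 153 bp. In both day 0 lists the highest scoring peak of the RARA window lay elsewhere, at chr17:38443459-38444639. It had 40 tags and a score of 104.62 in knockdown cells, and 60 tags and a score of 233.87 in control cells. That site had no peak at day 3, and in control cells it stood at rank 885 of its list. Only 1 RARA region, at chr17:38465154-38465652 with 18 tags, was called in knockdown cells alone.

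RARB, a receptor gene that retinoic acid itself induces, showed the largest excess of day 3 LSD1 peaks over the day 0 lists among the 10 windows. LSD1 had 10 peaks there at day 3 (95% Poisson interval 4.80 to 18.4), 2 in knockdown cells at day 0 (0.242 to 7.22) and 6 in control cells at day 0 (2.20 to 13.1). SVIL had 1 peak and LSD1+8a had 0. The window is the longest of the 10 at 520 kb, and its neighbours are the thyroid receptor gene THRB and the topoisomerase gene TOP2B. Of the 14 merged regions, 7 were called at day 3 alone and 3 at day 0 in control cells alone. Those 7 lay between chr3:25196798 and chr3:25537369, with 29 to 119 tags. Of the 10 day 3 peaks, 2 overlapped a day 0 peak of control cells, against 40.1% of the whole day 3 list. That list was also the longest, with 20748 peaks against 10248 in knockdown cells and 16882 in control cells at day 0. The Poisson intervals of the day 3 count and of both day 0 counts overlap.

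A single RARB region, chr3:25467871-25470605, was common to the 3 LSD1 lists. It had 122 tags at day 3, 41 tags in knockdown cells and 47 tags in control cells at day 0. In both day 0 lists it was the highest scoring RARB peak, with 121.23 in knockdown cells and 96.53 in control cells, and at day 3 it scored 187.9, below the peak at chr3:25526587-25527804 with 83 tags and a score of 242.57. The site at chr3:25526587 was also called in control cells at day 0 with 24 tags, its summits 47 bp apart, and had no peak in knockdown cells. The SVIL peak at RARB, chr3:25614261-25614542 with 17 tags and a score of 94.75, touched the day 3 LSD1 peak beside it by 9 bp only, and the summits were 655 bp apart. It is the SVIL peak of these windows with the highest fold enrichment in the authors' values, at 30.6.

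RXRA, the common dimer partner of the receptors, had no SVIL and no LSD1+8a peak. LSD1 had 3 peaks at day 3, 3 in knockdown cells at day 0 and 8 in control cells at day 0. The RXRA neighbours are the histone methylation cofactor gene WDR5 and the collagen gene COL5A1. All 3 day 3 peaks and all 3 knockdown peaks overlapped a peak of control cells at day 0, so the day 0 control list held every RXRA region of the 3. The region in all 3 LSD1 lists, chr9:137241446-137242567, had 87 tags at day 3, 10 tags in knockdown cells and 23 tags in control cells at day 0, with summits within 19 bp. It was the highest scoring RXRA peak at day 3, at 194.38. In both day 0 lists another site led, chr9:137298741-137299572, with 36 tags and a score of 183.39 in knockdown cells, and 39 tags and a score of 170.19 in control cells, the summits 8 bp apart. No day 3 peak was called at that site.

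**Figure D2:**
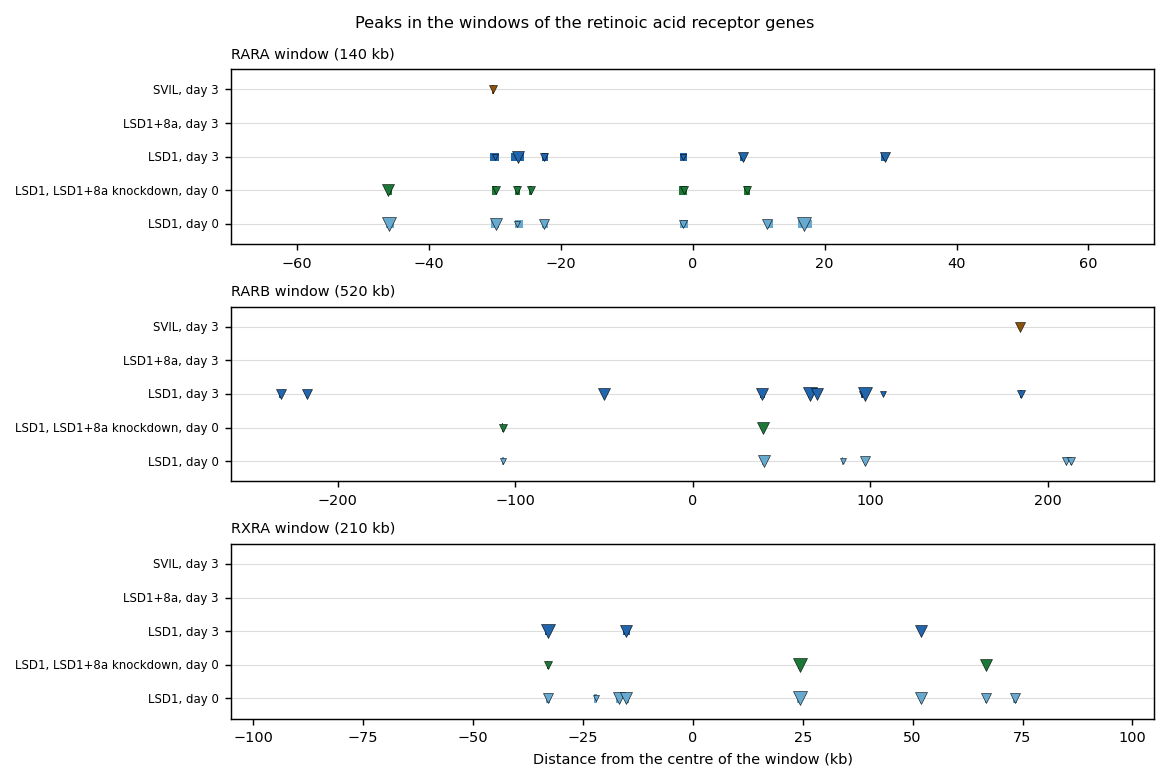
Peaks in the windows of RARA, RARB and RXRA, by distance from the centre of the window in kb (horizontal axis), with 1 row per list. Bars give the extent of a peak, triangles its summit, and a larger triangle a higher place by score within its own list. RARB shows 10 peaks at day 3 against 2 in knockdown cells and 6 in control cells at day 0, and RXRA shows 3, 3 and 8.

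CRABP2, which carries retinoic acid to the receptors in the nucleus, had the densest window. SVIL had 3 peaks, LSD1+8a had 3, LSD1 had 4 at day 3, 5 in knockdown cells at day 0 and 12 in control cells at day 0. The neighbouring genes are NES, which encodes the progenitor filament protein nestin, and ISG20L2, an exonuclease gene. Next in the order are BCAN before NES and METTL25B after ISG20L2. Whether genes further out lie in the window was not examined. Peaks of this window were not assigned to CRABP2 rather than to any other gene. LSD1+8a thus had 3 of its 4 peaks and SVIL 3 of its 8 peaks in this window. LSD1 peaks covered 8.35% of the 100 kb at day 3 and 6.01% in knockdown cells, against 17.3% in control cells at day 0.

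One CRABP2 region was called in all 5 lists. The peaks shared chr1:156679494-156679869, a stretch of 376 bp that is the SVIL peak itself, and their nearest summits lay within 123 bp. Tags were 33 for SVIL, 64 for LSD1+8a, 266 for LSD1 at day 3, 59 in knockdown cells and 150 in control cells at day 0. Its place by score varied between lists. Lower scores were held by 87.2% of SVIL peaks, where it led the window at 154.97, by 78.3% of LSD1+8a peaks, by 97.7% of LSD1 peaks at day 3, by 8.32% in knockdown cells and by 97.2% in control cells at day 0. By score the knockdown peak was thus near the bottom of its list, at 52.61, whereas the LSD1 peaks of both control libraries were near the top. By tags the knockdown peak was above the median of its list, at 59 against 28. Its fold enrichment was 5.57, against a list median of 9.13.

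A CRABP2 region at chr1:156710146-156711733 was called in the LSD1+8a list and the 3 LSD1 lists, and had no SVIL peak. It held 127 tags for LSD1+8a, 247 for LSD1 at day 3, 174 in knockdown cells and 176 in control cells at day 0, with summits within 78 bp. This was the highest scoring peak of the CRABP2 window in each of those lists. It had rank 230 of 3378 for LSD1+8a, rank 116 of 20748 at day 3, rank 69 of 10248 in knockdown cells and rank 23 of 16882 in control cells at day 0. It stayed in 4 lists when only the 1452 highest scoring peaks of every list were kept. The third shared region, chr1:156697441-156699198, had 84 tags for LSD1+8a, 62 for LSD1 in knockdown cells and 69 in control cells at day 0, and had no LSD1 peak at day 3. Just before it lay a pair of SVIL peaks that no other list called, chr1:156695458-156695896 with 32 tags and a score of 125.23, and chr1:156696443-156696793 with 21 tags and a score of 76.23. The LSD1 peaks of control cells at day 0 included 4 regions called in no other list, among the 12 peaks of that list in the window. Such regions were 3 among 6 peaks at RARB, 3 among 8 at RXRA and 2 among 7 at RARA. They were 2 among 2 at CYP26B1, 2 among 3 at MEIS1, and 1 among 3 each at DHRS3 and RET. The share over the whole list was not computed, so these counts are a description only.

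DHRS3, a reductase that turns retinal back into retinol and is induced by retinoic acid, had no SVIL or LSD1+8a peak. LSD1 had 2 peaks at day 3, 2 in knockdown cells at day 0 and 3 in control cells at day 0. The neighbours of DHRS3 are VPS13D and AADACL4, and peaks of this window were not assigned to DHRS3 rather than to them. The shared region, chr1:12655682-12657007, had 66 tags at day 3, 21 tags in knockdown cells and 35 tags in control cells at day 0. It led the DHRS3 window at day 3 with a score of 177.78 and in control cells at day 0 with 121.89. In knockdown cells the leading peak was at chr1:12718987-12719453, with 26 tags and a score of 121.45. Control cells at day 0 had a peak at the same place with 27 tags but a score of 52.11, lower than 94.6% of their list. No day 3 peak was found there.

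CYP26A1 and CYP26B1 encode the cytochrome P450 enzymes that clear retinoic acid, and their windows had no peak in any of the 3 lists of day 3. The CYP26A1 window had 3 LSD1 peaks in knockdown cells at day 0 (95% Poisson interval 0.619 to 8.77) and 0 in control cells at day 0 (0 to 3.69), so the intervals overlap. The knockdown peaks were chr10:94791847-94792457 with 13 tags and a score of 59.89, chr10:94831382-94832172 with 29 tags and a score of 90.22, and chr10:94833205-94833901 with 25 tags and a score of 77.05. None stood in the upper 10% of the knockdown list, in which 24.3%, 58.3% and 46.8% of peaks scored lower than these 3. The nearest LSD1 peak of control cells lay 25.8 kb outside the window at day 0 and 239.3 kb outside at day 3. The related gene CYP26C1 is the neighbour of CYP26A1 on 1 side, and MYOF, which encodes the membrane repair protein myoferlin, on the other.

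At CYP26B1, LSD1 in knockdown cells had 1 peak, chr2:72373515-72374318, with 26 tags and a score of 82.69. Control cells at day 0 had 2, at other places: chr2:72352428-72354170 with 44 tags and a score of 90.79, and chr2:72365481-72366263 with 19 tags and a score of 51.54. No CYP26B1 peak of either day 0 list overlapped a peak of the other. The neighbours of CYP26B1 are DYSF and EXOC6B.

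RET, a receptor tyrosine kinase for ligands of the GDNF family that retinoic acid induces in neuroblastoma cells, had 2 SVIL peaks and no LSD1+8a peak. LSD1 had 5 peaks at day 3, 2 in knockdown cells at day 0 and 3 in control cells at day 0. Its neighbours are BMS1, a ribosome assembly gene, and CSGALNACT2, a chondroitin synthesis gene. Peaks of this window were not assigned to RET rather than to these neighbours. The region chr10:43550179-43553535 was in all 3 LSD1 lists and was the highest scoring RET peak in each, with 216 tags and a score of 191.58 at day 3, 33 tags and a score of 58.87 in knockdown cells, and 134 tags and a score of 155.56 in control cells at day 0. It was also the widest, at 3020 bp at day 3, 966 bp in knockdown cells and 3357 bp in control cells at day 0. The second shared region of the RET window, chr10:43632674-43634207, had 34, 22 and 26 tags in the same order of lists, and the summits were spread over 705 bp. Of the SVIL peaks, chr10:43628917-43629283 with 24 tags and a score of 101.76 overlapped a day 3 LSD1 peak that scored 51.86, and chr10:43627375-43627721 with 18 tags and a score of 78.93 overlapped no peak of another list.

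MEIS1, a homeobox partner of the HOX proteins, had the other region found in all 5 lists. The peaks shared chr2:66662083-66662379, a stretch of 297 bp, and all summits lay within 91 bp. Tags were 16 for SVIL, 31 for LSD1+8a, 34 for LSD1 at day 3, 18 in knockdown cells and 36 in control cells at day 0. The peaks scored low in most lists: 12.3% of SVIL peaks scored lower, 18.9% of LSD1+8a peaks, 11.03% of LSD1 peaks at day 3 and 32.95% in knockdown cells, against 72.3% in control cells at day 0. With a minimum score of 71.72 in every list, the highest of the lists' lowest scores, the MEIS1 site was left in 2 lists, and with the 1452 highest scoring peaks of every list in 1. The CRABP2 region in all 5 lists was left in 4 lists under both settings. Other MEIS1 peaks were the highest scoring one of day 3, chr2:66689985-66691051 with 35 tags and a score of 66.97, and 2 of control cells at day 0 with 22 and 12 tags. MEIS1 is flanked by SPRED2, an inhibitor of RAS signalling, and ETAA1, a replication stress gene.

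NRIP1, a corepressor that binds ligand-bound nuclear receptors and is induced by retinoic acid, had no peak in any list over its 210 kb. The nearest SVIL peak lay 365.5 kb outside the window. For LSD1+8a it lay 524.1 kb outside, and for LSD1 523.7 kb at day 3, 523.9 kb in knockdown cells and 523.8 kb in control cells at day 0.

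**Figure D3:**
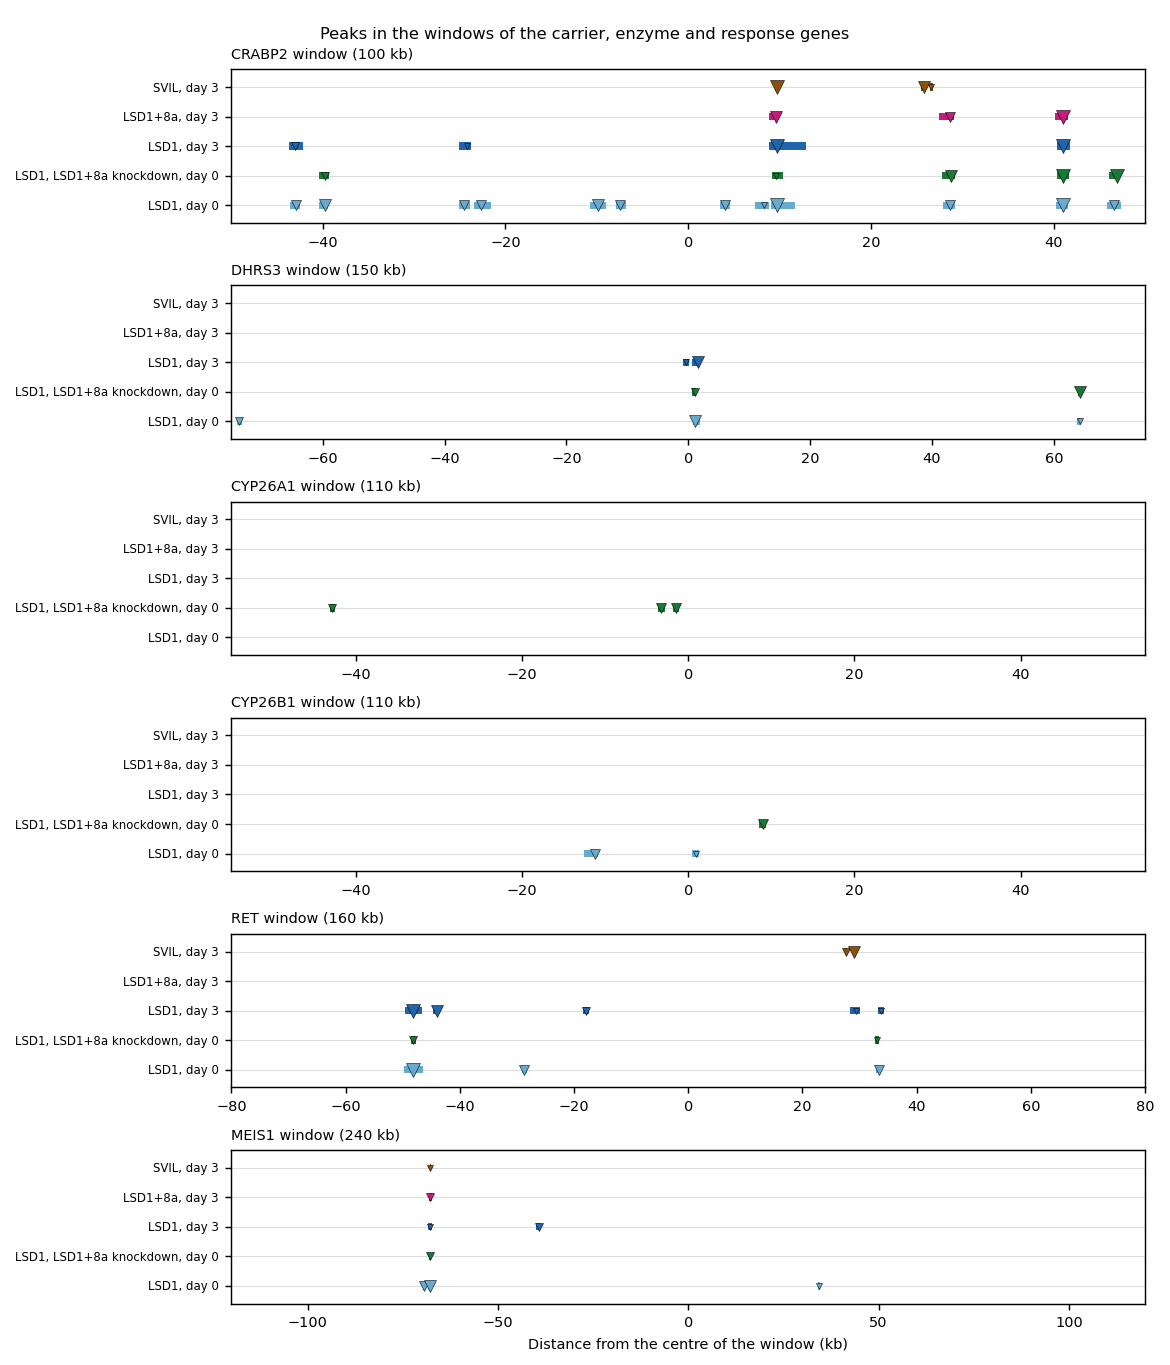
Peaks in the windows of the carrier, enzyme and response genes, by distance from the centre of the window in kb, with 1 row per list. Bars give the extent of a peak, triangles its summit, and a larger triangle a higher place by score within its own list. The CRABP2 and MEIS1 windows each hold a region with a peak in all 5 rows, and NRIP1, with 0 peaks, is not drawn.

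Apart from LSD1+8a, with 4 peaks, the median tags at these genes were within 1.5 times those of the whole lists. Median tags were 19.5 at the windows against 20 over the list for SVIL, 74 against 38 for LSD1+8a, 55.5 against 50 for LSD1 at day 3, 29 against 28 in knockdown cells and 35.5 against 26 in control cells at day 0. In the median, 45.8% of the list scored lower than a SVIL peak at the windows, 64.0% for LSD1+8a, 58.5% for LSD1 at day 3, 35.3% in knockdown cells and 55.1% in control cells at day 0. Peaks in the upper 10% of their list numbered 0 for SVIL, 1 for LSD1+8a, 2 for LSD1 at day 3, 1 in knockdown cells and 3 in control cells at day 0. Apart from the peak of the RARA window at rank 885 in control cells at day 0, all of these were in the CRABP2 window.

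**Figure D4:**
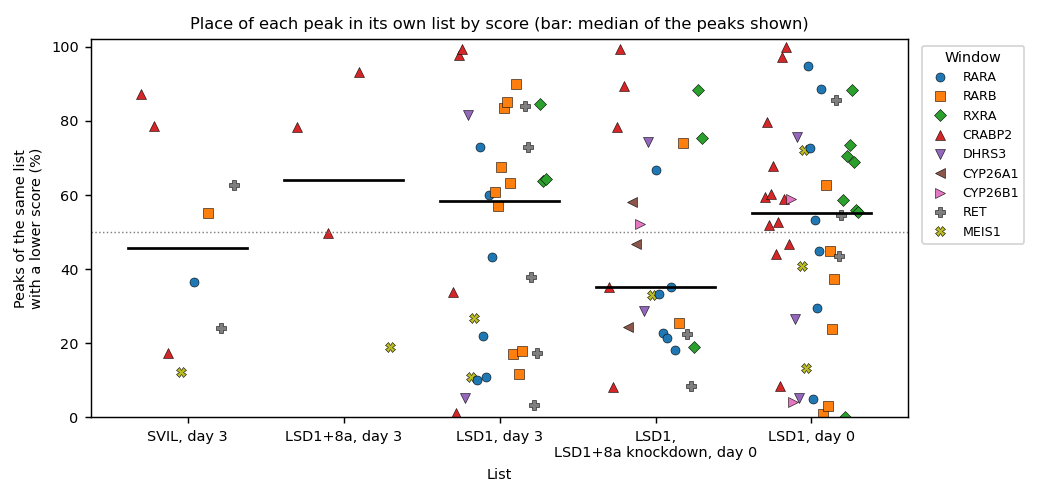
Share of peaks of the same list with a lower score in percent (vertical axis), for each peak at the windows, by list (horizontal axis) and window (symbol), with the median as a bar. CRABP2 peaks are the highest in all 5 lists, and the median is lowest in the knockdown list, at 35.3%.

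The first comparison asks how LSD1 sites at these genes differ between day 3 and day 0 of BDNF treatment in control cells. At day 3, 17 of 32 LSD1 peaks overlapped a day 0 peak by at least 1 bp, which is 53.1% (exact binomial 95% interval 34.7 to 70.9), against 40.1% of the whole day 3 list. In the other direction 18 of 44 day 0 peaks overlapped a day 3 peak, 40.9% (26.3 to 56.8), against 50.1% of the whole day 0 list. Both intervals include the share of the whole list. At day 3 the 15 LSD1 peaks with no day 0 partner were 8 of 10 at RARB, 3 of 5 at RET, 2 of 6 at RARA and 1 of 2 each at DHRS3 and MEIS1, and all 4 CRABP2 peaks and all 3 RXRA peaks had a partner. At day 0 the 26 LSD1 peaks with no day 3 partner came from every window with a peak: 7 of 12 at CRABP2, 5 of 8 at RXRA, 4 of 6 at RARB, 3 of 7 at RARA, 2 of 3 each at DHRS3 and MEIS1, 2 of 2 at CYP26B1 and 1 of 3 at RET. Overlapping peaks had summits a median of 100.5 bp apart, against 69 bp over the whole lists.

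The second comparison asks where LSD1 lay when LSD1+8a was knocked down, at day 0. In knockdown cells 19 of 25 LSD1 peaks overlapped a peak of control cells, 76% (54.9 to 90.6), against 69.4% of the whole knockdown list. In control cells 19 of 44 overlapped a knockdown peak, 43.2% (28.3 to 58.97), against 42.1% of the whole list. Both shares lay near the background. The 6 knockdown peaks with no control partner were the 3 at CYP26A1, 1 at CYP26B1 and 2 at RARA, and every knockdown peak at RARB, RXRA, DHRS3, CRABP2, RET and MEIS1 had one. The 25 control peaks with no knockdown partner were 7 of 12 at CRABP2, 5 of 8 at RXRA, 4 of 6 at RARB, 3 of 7 at RARA, 2 of 3 at MEIS1, 2 of 2 at CYP26B1, and 1 of 3 each at DHRS3 and RET. Paired summits lay a median of 67 bp apart, against 49 bp over the whole lists. The knockdown list was also the shorter as a whole, with 10248 peaks against 16882.

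The third comparison sets LSD1+8a against LSD1 at day 3. Of the 4 LSD1+8a peaks, 3 overlapped an LSD1 peak, 75% (19.4 to 99.4), against 59.6% of the whole LSD1+8a list. They were the CRABP2 regions in 5 and 4 lists and the MEIS1 region. The exception was the LSD1+8a peak at chr1:156697441-156699085 in the CRABP2 window, which overlapped LSD1 peaks of both day 0 lists. All 4 therefore overlapped a peak of at least 1 of the 3 LSD1 lists (39.8 to 100%), against 84.5% of the whole list. Of the 32 LSD1 peaks at day 3, 3 overlapped an LSD1+8a peak, 9.38% (1.98 to 25.02), against 9.69% of the whole list. No LSD1 peak at RARA, RARB, RXRA, DHRS3 or RET was among them, and the share over all windows lay near that of the whole list.

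SVIL was compared with LSD1+8a, which the series design pairs with it, and with LSD1, all at day 3. SVIL overlapped LSD1+8a at 2 of its 8 peaks, 25% (3.19 to 65.1), against 18.6% of the SVIL list. These were the MEIS1 region and the CRABP2 region in all 5 lists, and they are 2 of 4 LSD1+8a peaks, 50% (6.76 to 93.2), against 7.7% of the LSD1+8a list. LSD1 peaks overlapped 5 of the 8 SVIL peaks, 62.5% (24.5 to 91.5), against 58.7% of the SVIL list: 1 each at RARA, RARB, CRABP2, RET and MEIS1. Counted over any of the 3 LSD1 lists the number was the same 5 of 8, against 69.6% of the SVIL list. Seen from LSD1, 5 of 32 peaks overlapped SVIL, 15.6% (5.28 to 32.8), against 3.97% of the whole list. This interval lies above that share, but the 5 include the RARB pair, which shared 9 bp only with summits 655 bp apart. The interval without that pair was not computed. SVIL peaks were also denser in the windows than over the span of their list, at 4.10 against 0.477 per Mb. With the lowest SVIL score of 71.72 applied to both lists, SVIL overlapped LSD1 at 12.5% of its peaks and LSD1 overlapped SVIL at 5% of its peaks. With an overlap of at least 50% of both peaks the SVIL shares were 0% in all 4 directions. No SVIL peak with a partner was long enough to cover 50% of that partner, so no other value was possible. Whole-list shares under these settings were not computed, so the shares above are not a reference for them. SVIL peaks were short, with a median of 349 bp at the windows, against 1305 bp in the LSD1+8a list and 1104 bp in the day 3 LSD1 list.

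**Figure D5:**
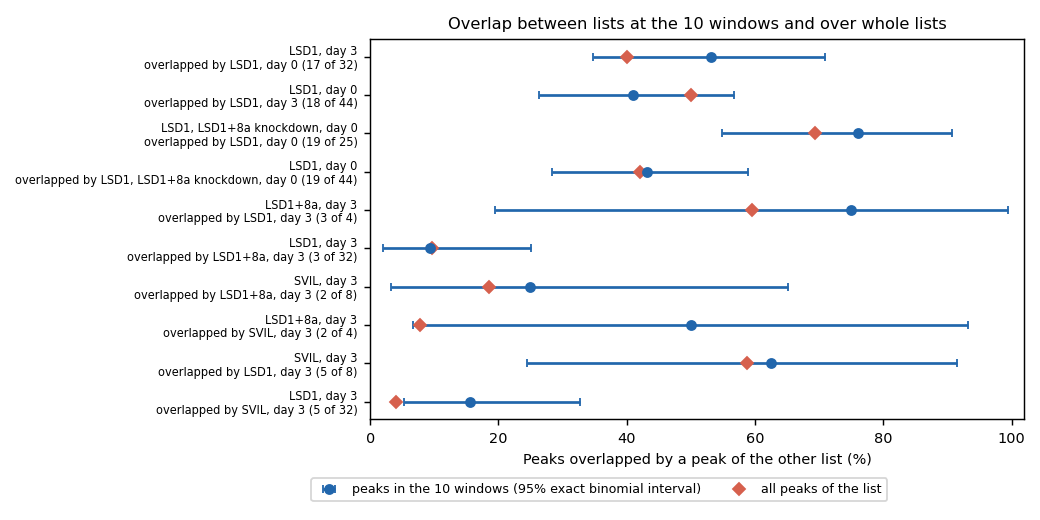
Share of peaks of 1 list that a peak of the other list overlaps by at least 1 bp, in percent (horizontal axis), for the 5 comparisons in both directions (rows). Circles are the peaks at the 10 windows with 95% exact binomial intervals, diamonds all peaks of the list. The interval includes the whole-list share in all rows but the last, LSD1 at day 3 overlapped by SVIL, where 15.6% stands against 3.97%. The overlaps of that row include 1 at RARB of 9 bp only.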

How the data were processed

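ChIP-seq peak lists of 5 libraries, 1 per group, were used, so the authors called peaks per sample. CASAVA, Bowtie 1.0.0 and the builds hg19 and mm9 are named, per the submitters' processing notes. The lists hold chromosomes 20, 21 and 22 and were read as hg19. No source used here names the caller, the threshold, the input or the depth behind a list. The only input of control cells at day 3 in the series is labelled as an input for H3K9me2. Control cells and knockdown cells at day 0 each also have an input without that label. How this bears on the scores and fold enrichments of the day 3 lists was not tested. Deposited tags per peak are raw whole-number counts. The deposited fold enrichment is a ratio of the authors' caller. The deposited score column has a damaged header and was taken as a unitless score.

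Members are peaks that overlap 1 of 10 windows by at least 1 bp. Members and lists were chosen with earlier results of these data known. Named are regions in 3 or more lists, the highest scoring peak of each list per window, and every SVIL and LSD1+8a peak. Counts have exact Poisson and shares exact (Clopper-Pearson) 95% intervals, which cover counting error only. Peaks of 1 list share a library and are not replicates. Overlap functions were tested on simulated peaks. Alternatives tried were edges within 1 kb, an overlap of 50% of both peaks, a common lowest score, equal numbers of top-scoring peaks, and summits inside the window. Leaving out the CRABP2 window was added after the data were seen. Other pathway genes were not counted, since no hg19 annotation was used. Python 3.11.15, pandas 2.3.3 and SciPy 1.17.1 were used.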

Additional observations from a re-analysis of the deposited data

How the results depend on the processing

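Peak counts followed the score threshold. With a minimum score of 71.72 in every list, the counts were 8 for SVIL and 2 for LSD1+8a. For LSD1 they were 20 at day 3, 11 in knockdown cells and 32 in control cells at day 0, and the order of the LSD1 lists held. With 1452 top-scoring peaks from every list they were 2 for LSD1+8a, 2 for LSD1 at day 3, 3 in knockdown cells and 3 in control cells at day 0, and the order of the LSD1 lists did not hold. Under both settings fewer peaks enter by construction from every list but SVIL, whose lowest score and number of peaks set them. Leaving out the CRABP2 window, an alternative chosen after seeing the data, left 5 SVIL peaks and 1 LSD1+8a peak. Regions in 3 or more lists numbered 12, against 3 with the minimum score and 2 with the equal numbers. Whole-list shares were computed at the main setting only, so none stands beside the alternatives given here. Of the 10 shares, those that moved beyond their interval were these. With 50% of both peaks, all 4 SVIL shares were 0%. SVIL peaks are too short to cover 50% of their partners, so no other value was possible. With a common lowest score, SVIL by LSD1 was 12.5% and LSD1 by SVIL 5%. With equal numbers of top peaks, LSD1 by LSD1+8a was 33.3% of 6 peaks, SVIL by LSD1 12.5%, and LSD1 by SVIL 50% of 2 peaks. Without the CRABP2 window, LSD1+8a by LSD1 and LSD1+8a by SVIL were each 100% of 1 peak. Both shares by day and both by knockdown stayed inside their intervals under all of these alternatives, but the intervals are wide. With equal numbers of top peaks, day 0 by day 3 went from 40.9% to 29.5% and knockdown by control from 76% to 60%. No share left its interval with edges at most 1 kb apart, and every count was the same with summits in the window. The depth of the libraries is unknown, which limits every count. No paired analysis was possible because each group is 1 library and no result comes from a test.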

Other observations

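Within 20 kb outside the windows there was no SVIL peak, 1 LSD1+8a peak, and 6 LSD1 peaks at day 3, 2 in knockdown cells at day 0 and 6 in control cells at day 0. At CRABP2 alone, these were 1 for LSD1+8a, 3 for LSD1 at day 3, 2 in knockdown cells and 3 in control cells at day 0, the nearest 1.10 kb, 1.37 kb and 1.30 kb outside for the 3 LSD1 lists, so LSD1 peaks went on past the edges of that window.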
